A study of Mus musculus with 4 samples.

Results

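Transcripts of 10 genes of regulated necrotic cell death and the inflammasome were followed in 4 mouse heart sections. They were the necroptosis genes Ripk1, Ripk3, Mlkl and Zbp1, the protease gene Casp8 that sits between necroptosis and apoptosis, the inflammasome genes Nlrp3, Casp1 and Casp4, and the gasdermin genes Gsdmd and Gsdme. They were chosen by symbol among the 19465 genes listed for every section, and all 10 were found. The sections came from the hearts of FVB/NJ wild type mice. All had been immunized with a MyHCα peptide, a fragment of the cardiac myosin heavy chain, and all had received anti-PD-1 and anti-CTLA-4, a pair of immune checkpoint inhibitors (ICIs). In 2 sections these were the whole treatment (ICI alone), and the labels record myocarditis in that group. In the other 2 sections the mice had been given an IL-17A neutralizing antibody as well (antibody sections), and the labels call the myocarditis mitigated. Hearts were fixed in formalin, embedded in paraffin, cut at 5 µm and profiled on Visium slides, on which a grid of barcoded spots captures RNA in place and each unique molecular identifier (UMI) stands for 1 captured molecule. No section came from a mouse without checkpoint inhibitors or without immunization, and the labels give no ages. They also do not say that the 2 sections of a group are 2 animals, so each p-value here stands for section-to-section spread. The 2 sections of each group carry the batch numbers 1 and 2, which are used here as replicate numbers.

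Necroptosis is a lytic death in which the kinase RIPK3, activated by RIPK1 below death receptors or by the nucleic acid sensor ZBP1, phosphorylates MLKL, the protein that breaks the plasma membrane. Caspase-8 cleaves RIPK1 and RIPK3 and so restrains this route while driving apoptosis. Pyroptosis is the gasdermin route: NLRP3 assembles an inflammasome that activates caspase-1, caspase-4 answers cytosolic lipopolysaccharide, and both cut gasdermin D, whose fragment forms membrane pores and lets interleukin-1β and interleukin-18 out of the cell. Gasdermin E is opened by caspase-3 instead. Most of these genes are expressed in macrophages and other leukocytes, several are known targets of interferons, and both forms of death have been studied in injured and inflamed heart.

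RefSeq promoter windows on the build GRCm38.p6 (mm10), each of 300 bases from 250 before to 50 after an annotated start, were available for 8 of the 10 genes. Windows are printed for the 3 genes that differed between treatments in whole sections (Ripk3, Nlrp3 and Casp8) and for Ripk1, the 1 gene of the 8 whose windows held a match to either interferon motif searched. All are 5′ to 3′ on the strand of the gene, in lower case, with motif matches in capitals.

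Ripk1, chr13:34002624-34002923, plus strand: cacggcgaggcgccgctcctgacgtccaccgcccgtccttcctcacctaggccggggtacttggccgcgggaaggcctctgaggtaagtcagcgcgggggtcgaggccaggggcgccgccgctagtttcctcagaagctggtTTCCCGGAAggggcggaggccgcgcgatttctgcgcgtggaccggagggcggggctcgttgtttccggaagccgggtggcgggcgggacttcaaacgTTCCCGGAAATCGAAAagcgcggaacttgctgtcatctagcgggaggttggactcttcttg

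Ripk3, chr14:55788808-55789107, minus strand: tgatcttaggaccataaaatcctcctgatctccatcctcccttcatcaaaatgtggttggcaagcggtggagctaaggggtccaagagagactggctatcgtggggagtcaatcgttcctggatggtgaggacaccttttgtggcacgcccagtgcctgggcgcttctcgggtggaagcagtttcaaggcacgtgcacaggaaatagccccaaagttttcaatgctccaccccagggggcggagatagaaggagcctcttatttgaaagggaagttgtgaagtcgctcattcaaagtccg

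Casp8, chr1:58802252-58802551, plus strand: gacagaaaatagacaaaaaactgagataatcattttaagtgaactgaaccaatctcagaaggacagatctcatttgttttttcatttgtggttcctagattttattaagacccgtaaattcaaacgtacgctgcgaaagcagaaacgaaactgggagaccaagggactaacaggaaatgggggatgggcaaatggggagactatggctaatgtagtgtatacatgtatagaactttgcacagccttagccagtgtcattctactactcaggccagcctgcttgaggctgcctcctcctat

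Nlrp3, chr11:59541319-59541618, plus strand: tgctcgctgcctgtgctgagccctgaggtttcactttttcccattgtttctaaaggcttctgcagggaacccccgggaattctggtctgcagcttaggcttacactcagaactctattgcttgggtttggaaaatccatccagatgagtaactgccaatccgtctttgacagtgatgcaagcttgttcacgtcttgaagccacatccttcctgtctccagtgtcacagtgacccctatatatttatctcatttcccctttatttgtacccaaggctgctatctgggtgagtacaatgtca

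The capitals in Ripk1 mark GAAATCGAAA, which starts 5 bases before the annotated start and fits the interferon-stimulated response element searched (GAAA, any 2 bases, GAAA). They also mark TTCCCGGAA, which starts 108 and 11 bases before it and fits the gamma-activated site searched as TTCNNNGAA. The second TTCCCGGAA overlaps GAAATCGAAA. These positions are from the start of the printed window, 1 of 2 for Ripk1, and the other window held no match. Nlrp3 also had 2 windows, of which 1 is printed. Both strands were searched. Among 27025 genes with a RefSeq window, 3.99% had the first motif and 9.55% had TTCNNNGAA, beside 1 gene of the 8 with each. A match is a description, and a window without a match says only that these letters are not in it.

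On the same build the genes lie at chr13:34002225-34035170 (Ripk1), chr14:55784995-55788857 (Ripk3), chr8:111311255-111338479 (Mlkl), chr2:173206612-173218959 (Zbp1), chr1:58795233-58847503 (Casp8), chr11:59541569-59566955 (Nlrp3), chr9:5298517-5307281 (Casp1), chr9:5308849-5336791 (Casp4), chr15:75862144-75867408 (Gsdmd) and chr6:50207401-50263857 (Gsdme), all annotated as protein coding. Casp1 and Casp4 are neighbours on chromosome 9. The counts behind the genes differed widely. Zbp1 had 10012 and 10435 UMIs in the ICI-alone sections and 5706 and 5922 in the antibody sections, while Gsdme had 205, 311, 125 and 85 UMIs in the same order, so Gsdme is the least precisely measured. Nlrp3, the second lowest, had 961, 1477, 451 and 302 UMIs. Because capture differs from gene to gene, levels are compared between sections and places and not between genes. Genes of tissues other than heart (17 genes) had a median of 0.273 to 0.515 CPM per section (CPM being a gene's UMIs scaled to a common library total), below every level of Gsdme given here, but the highest of them, Mbp, had 12.9 to 17.7 CPM, above Gsdme in whole sections.

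The sections held 2503 to 3052 spots under tissue and 33005923 to 73167202 UMIs, with a median of 12298 to 27912 UMIs per spot, and both antibody sections were the shallower ones. Cardiomyocyte markers were strong in every section, with 9 markers summing to 56996 and 34405 CPM (ICI alone) and 93941 and 77827 CPM (antibody). Macrophage markers (12 genes) summed to 2249.6 and 2957 CPM (ICI alone) and 1144 and 1728 CPM (antibody), and neutrophil markers (12 genes) to 401 and 745 CPM (ICI alone) and 78.2 and 61.9 CPM (antibody). Fibroblast markers (8 genes) summed to 7614 and 16720 CPM (ICI alone) and 2143 and 2427 CPM (antibody), with 5 of the 8 called lower by edgeR (median −1.19 on the log2 scale). All 3 sums were lower in both antibody sections. T cell markers (12 genes) summed to 111 and 107 CPM (ICI alone) and 129 and 131 CPM (antibody), and cytotoxic cell markers (9 genes) to 64.6 and 58.0 CPM (ICI alone) and 85.0 and 89.3 CPM (antibody) with Klrb1c at 0 in every section. Atrial tissue, by Sln, Myl4, Myl7 and Bmp10, was found in 163 spots of antibody replicate 2 and in no spot of the other sections. Pairs of sections shared 2040 to 2239 spot barcodes, which are fixed positions of the slide layout and not shared cells.

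Spots were sorted by 20 leukocyte genes, none of them among the 10 described. After each spot was thinned to 5000 UMIs, a spot with at least 32 UMIs on these genes was called immune-rich, a threshold set so that at most 10% of spots reach it with sections weighted equally. By this rule 237 of 2492 spots (9.51%, 95% Wilson interval 8.42 to 10.7%) were immune-rich in ICI-alone replicate 1 and 550 of 3048 (18%, 16.7 to 19.4%) in replicate 2. In the antibody sections the counts were 213 of 2499 (8.52%, 7.49 to 9.68%) and 73 of 2548 (2.86%, 2.28 to 3.59%). Among the remaining spots, those with at least 96 UMIs on 17 genes induced by interferon gamma, again none of the 10, were called interferon-rich: 145 and 92 spots in the ICI-alone sections and 274 and 421 spots in the antibody sections. The maps show the immune-rich spots as compact foci with interferon-rich spots along their edges and in wider fields. Of the interferon-rich spots, 31.7 and 7.61% (ICI alone) and 55.8 and 69.4% (antibody) lay 3 or more steps of the grid from any immune-rich spot. Intervals on shares cover counting error only.

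**Figure D1:**
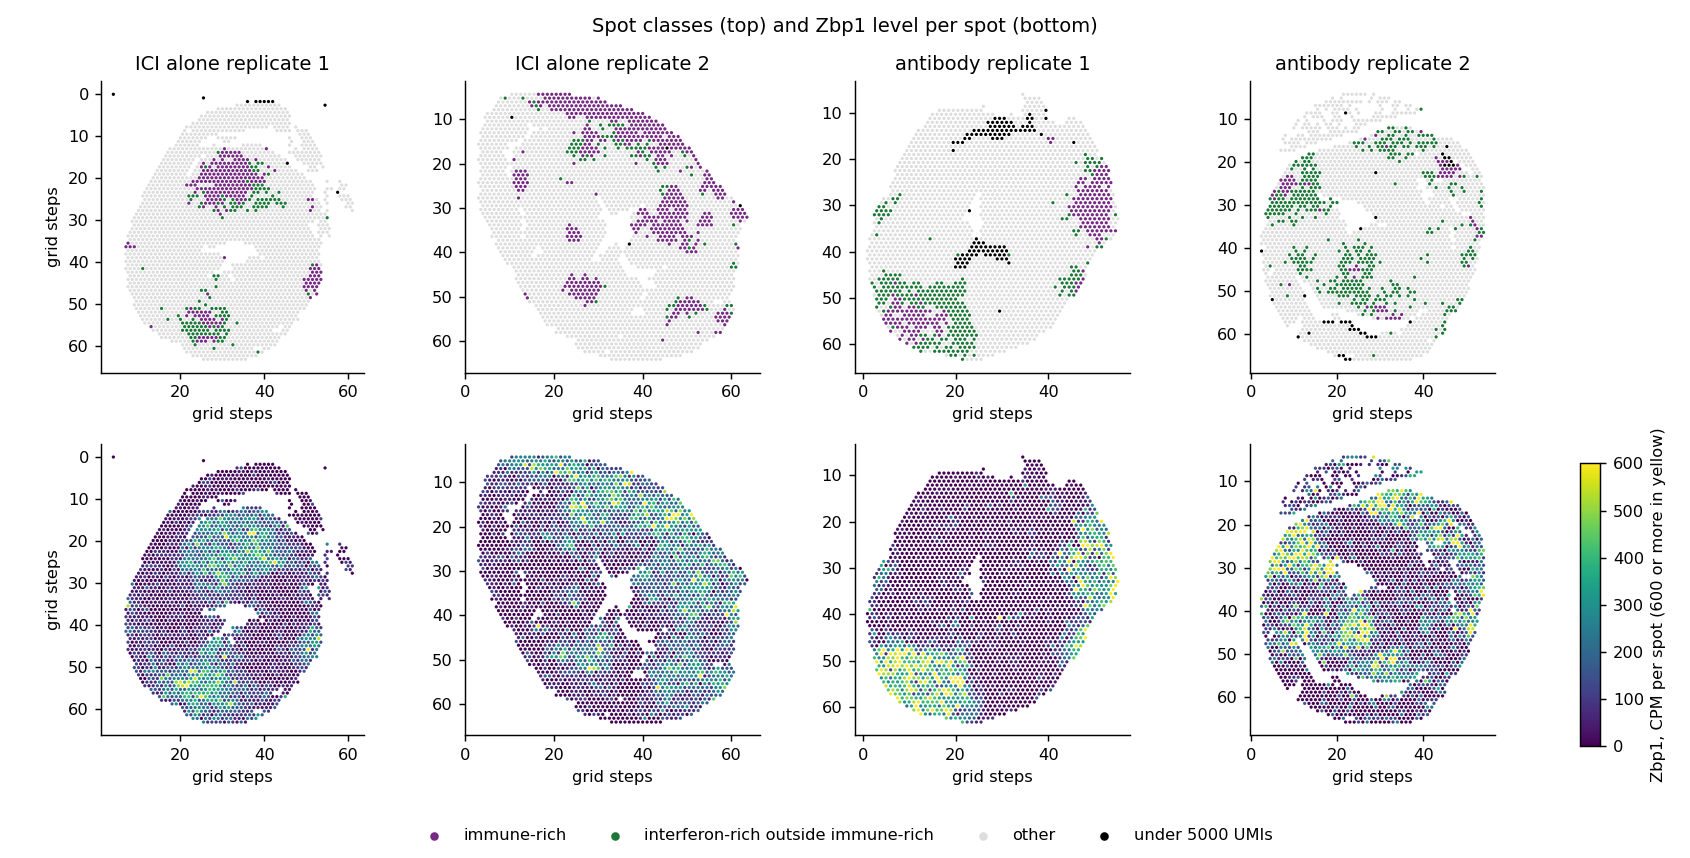
Spot maps of the 4 sections, with both axes in steps of the spot grid. The upper row colours each spot by class (immune-rich, interferon-rich outside immune-rich, other, or under 5000 UMIs), and the lower row by Zbp1 in CPM per spot; Zbp1 is high over the immune-rich foci and over the interferon-rich fields around them in every section.

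Across whole sections, Ripk3, Nlrp3 and Casp8 were lower with the IL-17A antibody than with ICIs alone, and the other 7 genes did not pass the test. Ripk3, the kinase that commits cells to necroptosis, stood at 26.3 and 33.5 CPM (ICI alone) against 14.9 and 14.9 CPM (antibody) (CPM after TMM normalisation). The 2 groups did not overlap. The antibody sections were nearly equal after this scaling, but from 713 and 523 UMIs, so their small SD says little about spread. The group levels were 29.9 ± 5.08 against 14.9 ± 0.0170 CPM (SD, n = 2 sections each), a log2 fold change of −1.01 ± 0.16 (SE), with an adjusted p of 0.0225 by edgeR's quasi-likelihood test over 18817 genes. Nlrp3, the inflammasome sensor, stood at 14.4 and 21.7 CPM (ICI alone) against 9.42 and 8.58 CPM (antibody). Its log2 fold change was −1.0 ± 0.22 (edgeR adjusted p = 0.0363), and ICI-alone replicate 2 was the highest section while the other ICI-alone section still lay above both antibody sections. Casp8, the protease that restrains necroptosis, stood at 78.5 and 96.8 CPM (ICI alone) against 52.5 and 55.0 CPM (antibody). It differed by −0.71 ± 0.16 on the log2 scale (edgeR adjusted p = 0.0362), again without overlap of the groups. By batch, the log2 differences were −0.82 and −1.17 for Ripk3, −0.61 and −1.34 for Nlrp3 and −0.58 and −0.82 for Casp8 in batches 1 and 2. As the groups did not overlap for any of the 3 genes, their signs could not differ between batches.

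Of all genes tested, 8.81% were called lower and 3.03% higher with the antibody (11.8% either way). These were 1658 and 571 genes, or 1029 and 840 with scaling by library size alone. The median over all genes was 0.09 on the log2 scale, against a median of −0.43 over the 10 genes. With the batch as a replicate block the same 3 genes were called, at adjusted p of 0.0153 for Ripk3, 0.0301 for Nlrp3 and 0.0221 for Casp8, while calls over all genes rose from 2229 to 3839. The calls rest on both antibody sections: none of the 10 genes passed when antibody replicate 1 was left out (Ripk3 0.0630, Nlrp3 0.0913, Casp8 0.142) or when antibody replicate 2 was (Ripk3 0.0524, Nlrp3 0.106, Casp8 0.116). Leaving out ICI-alone replicate 1 instead, more of the 10 genes passed, and calls over all genes rose as well. Casp8 also did not pass without ICI-alone replicate 2 (0.0511), with scaling by library size alone (0.0618), without atrial-rich spots by the list that includes Nppa (0.0521) or with genes under 10 CPM left out (0.0796). In the last of these Nlrp3 did not either (0.0725). Macrophage, neutrophil and fibroblast marker sums were lower in both antibody sections as well, and their part in these differences was not tested. In tissue sums, fewer cells of a type and less RNA per cell cannot be told apart.

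The other necroptosis genes differed less. Ripk1, the kinase below the death receptors, stood at 26 and 30.4 CPM (ICI alone) against 19.6 and 22.6 CPM (antibody) (−0.42 ± 0.15 log2, adjusted p = 0.105), lower in both antibody sections but past no threshold after adjustment. Mlkl, the executioner of necroptosis, stood at 54.2 and 66.5 CPM (ICI alone) against 44.5 and 59.8 CPM (antibody) (−0.21 ± 0.19, adjusted p = 0.426), and antibody replicate 2 lay between the ICI-alone sections. Zbp1, the nucleic acid sensor, stood at 149.8 and 153 CPM (ICI alone) against 119 and 168 CPM (antibody) (−0.08 ± 0.20, adjusted p = 0.796). Its lowest and its highest section were both antibody sections, and the sign of its small difference turned when counts were scaled by library size alone (0.020), when genes under 10 CPM were left out (0.10) and without antibody replicate 1 (0.15). The spread of Zbp1 between the antibody sections was wider than its difference between groups.

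The inflammatory caspases and the gasdermins were lower in both antibody sections than in both ICI-alone sections without passing the test. Casp1, which matures interleukin-1β, stood at 39.2 and 43.3 CPM (ICI alone) against 30.7 and 32.9 CPM (antibody) (−0.38 ± 0.14, adjusted p = 0.100). Casp4 stood at 53.2 and 60.7 CPM (ICI alone) against 36.3 and 48.2 CPM (antibody) (−0.43 ± 0.17, adjusted p = 0.127). Gsdmd, the pore former of pyroptosis, stood at 80.6 and 92.5 CPM (ICI alone) against 60.9 and 70.1 CPM (antibody) (−0.40 ± 0.15, adjusted p = 0.114). Gsdme, the gasdermin opened by caspase-3, stood at 3.07 and 4.57 CPM (ICI alone) against 2.61 and 2.42 CPM (antibody) (−0.60 ± 0.26, adjusted p = 0.15), with ICI-alone replicate 2 above the other 3 sections. In all, the groups did not overlap for 8 of the 10 genes, the exceptions being Mlkl and Zbp1, beside 68.2% of all genes tested (32.2% lower and 36.0% higher with the antibody). An unadjusted p under 0.05 was found for 7 of the 10, beside 35.2% of all genes (18.9% lower and 16.3% higher).

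**Figure D2:**
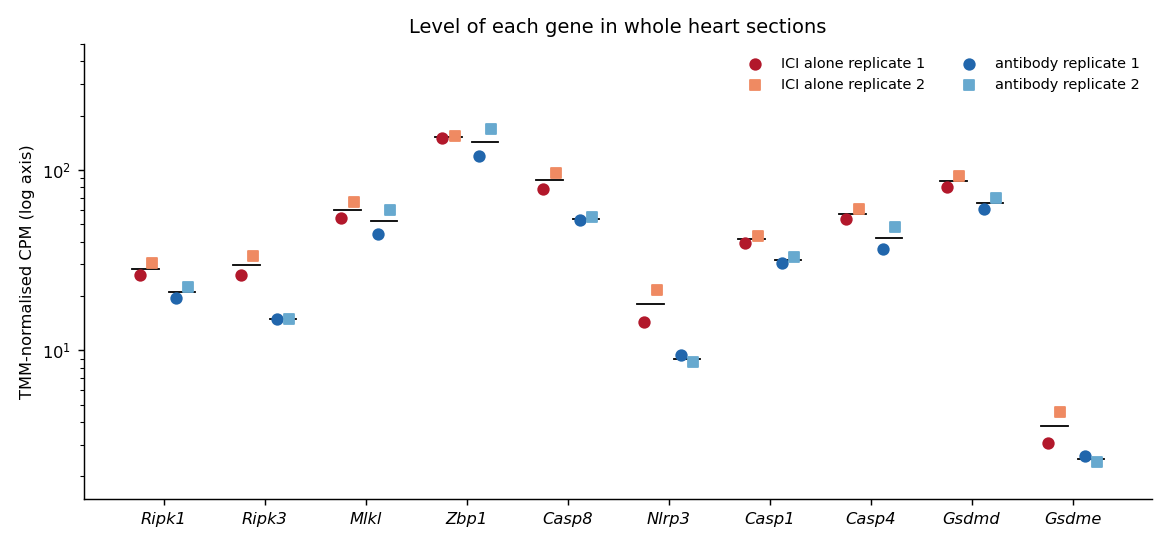
TMM-normalised CPM of each gene in whole sections, on a log axis, with 1 point per section (circles batch 1, squares batch 2; red ICI alone, blue with the IL-17A antibody) and black bars at the group means. Ripk3, Nlrp3 and Casp8 lie clearly lower in both antibody sections, while the groups overlap for Mlkl and Zbp1.

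Immune-rich spots held more of every one of the 10 transcripts than the other spots of the same section. All 10 genes were higher in all 4 sections and passed the test, beside 27.7% of the 16080 genes tested called higher (54.2% either way), and their median log2 fold change was 1.04 against 0.12 over all genes. Nlrp3 had the highest ratio of the 10, at 43.6 over 10.9 and 44.5 over 16.6 CPM (ICI alone), and 35.1 over 7.07 and 43.1 over 7.76 CPM (antibody) (immune-rich over other spots in each section). Its levels were 41.6 ± 4.37 against 10.6 ± 4.33 CPM (SD, n = 4 sections), with a log2 fold change of 2.01 ± 0.18 and an edgeR adjusted p of 8.12e-05. In every section the immune-rich value of Nlrp3 was more than 2 times the value of the other spots. Ripk3 followed at 70.6 over 21.4 and 59.4 over 28.5 CPM (ICI alone), and 50.3 over 11.9 and 44.4 over 14.8 CPM (antibody), with a log2 fold change of 1.60 ± 0.17 (edgeR adjusted p = 0.000141). Casp1 stood at 85.5 ± 7.88 against 32.3 ± 4.39 CPM (SD, n = 4 sections) and Casp8 at 151 ± 9.82 against 65.1 ± 17.5 CPM (SD, n = 4 sections), with log2 fold changes of 1.41 ± 0.13 and 1.25 ± 0.14. Mlkl, Gsdmd and Zbp1 were each close to a doubling, at 1.06 ± 0.15, 1.02 ± 0.13 and 0.99 ± 0.16. Casp4 and Ripk1 had smaller ratios, at 0.95 ± 0.13 and 0.81 ± 0.11, with edgeR adjusted p of 0.000612 and 0.000617.

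Gsdme, with the fewest counts, stood at 4.54 over 3.06 and 6.54 over 4.42 CPM (ICI alone), and 7.50 over 2.25 and 5.38 over 2.51 CPM (antibody), a log2 fold change of 0.94 ± 0.26 (edgeR adjusted p = 0.0159). It lost its call when spots were ranked by macrophage markers in place of the leukocyte panel (0.23 on the log2 scale, adjusted p = 0.457), while the other 9 genes kept theirs under all 12 alternatives run. Scaling by library size alone moved the median of all genes to 0.41 and the split of calls from 4455 higher and 4260 lower to 6642 higher and 2987 lower, and all 10 genes stayed higher. Immune-rich spots differed in much else: cardiomyocyte markers summed to 5741 and 3340.3 CPM (ICI alone) and 5782 and 14334 CPM (antibody) there against 63939 and 43409 CPM (ICI alone) and 102897 and 80325 CPM (antibody) in the other spots. The 17 genes of other tissues also summed higher there, at 51.6 and 44.8 CPM (ICI alone) and 65.8 and 57.0 CPM (antibody) against 17.6 and 18.9 CPM (ICI alone) and 17.9 and 25.6 CPM (antibody) in the other spots. Of the 8 that could be tested, 6 were called higher, with a median of 1.16 on the log2 scale over the 8. Mbp had the highest level of the 17 in every section, and the part of this rise in the results for the 10 genes was not tested.

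**Figure D3:**
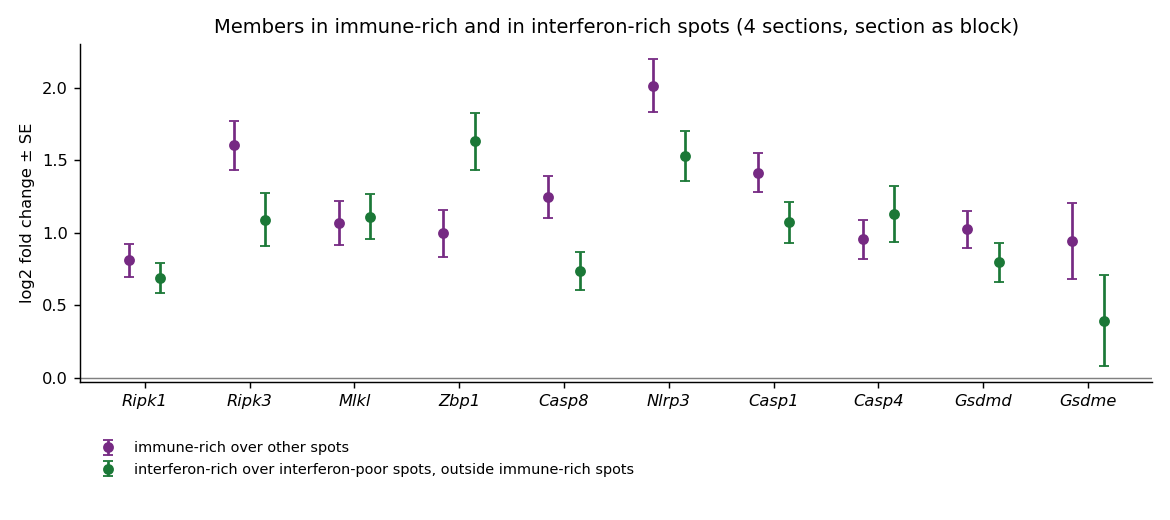
Log2 fold change with its SE for each gene in immune-rich against other spots (purple) and in interferon-rich against interferon-poor spots outside the immune-rich ones (green), from fits over 4 sections with the section as a block. Nlrp3 and Ripk3 have the largest immune-rich differences of the 10, Zbp1 has the largest interferon-rich one, and Gsdme is the gene whose interferon-rich difference did not pass the test.

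Levels were then followed outward from the immune-rich spots in steps of the spot grid (0 for the immune-rich spots themselves, then 1, 2, 3, 4 to 5, and 6 or more), scaled by library size. Nlrp3 fell at every step in all 4 sections. It went through 41.8, 25.6, 16.9, 10.3, 7.56 and 3.46 CPM in ICI-alone replicate 1 and 46.6, 32.3, 17.5, 11.7, 9.32 and 5.50 CPM in replicate 2. With the antibody it went through 42.6, 33.1, 23.4, 10.9, 4.89 and 1.61 CPM in replicate 1 and 51.4, 30.0, 16.6, 8.10, 6.71 and 3.19 CPM in replicate 2. The immune-rich level of Nlrp3 was thus 12.1 and 8.48 times the level 6 or more steps away in the ICI-alone sections, and 26.5 and 16.1 times it in the antibody sections, the highest ratios of the 10 genes in each section. Ripk3 had ratios of 6.66 and 5.80 (ICI alone) and 12.4 and 6.92 (antibody), and dropped to between 60.2 and 82.7% of its immune-rich level already 1 step out. Distances rest on spots classed by leukocyte genes, so these are descriptions with no test.

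Zbp1 had another profile. It went through 272, 249.8, 203, 147, 126 and 54.3 CPM in ICI-alone replicate 1 and 239.8, 241, 177, 127, 86.4 and 51.4 CPM in replicate 2, and through 374, 398, 310.5, 229.7, 141 and 27.7 CPM and 368, 394, 352, 259, 195 and 90.8 CPM in the antibody replicates. In 3 of the 4 sections its highest level was 1 step outside the immune-rich spots. Over all 4 sections the level of Zbp1 at 1 step was 91.7 to 107% of its immune-rich level. At 4 to 5 steps out Zbp1 was still above its level 6 or more steps away, as was Nlrp3 in every section. Casp4 also held its level 1 step out in the antibody sections, at 106 and 103 CPM in replicate 1 and 106 and 106 CPM in replicate 2, whereas with ICIs alone it went from 95.6 to 71.4 and from 94.5 to 79.3 CPM. Ripk1, Mlkl, Gsdmd, Casp1, Casp8 and Nlrp3 fell at every step in all 4 sections. Ripk1 had the shallowest profile of those 6, with an immune-rich level 2.56 to 3.75 times that of the spots 6 or more steps away. Gsdme fell least evenly, with ratios of 2.13 and 1.87 (ICI alone) and 5.90 and 3.16 (antibody) from 35 to 62 UMIs in the outermost ring. Over the same steps the interferon gamma genes were highest 1 or 2 steps out, and the neutrophil markers were highest in the immune-rich spots of every section.

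**Figure D4:**
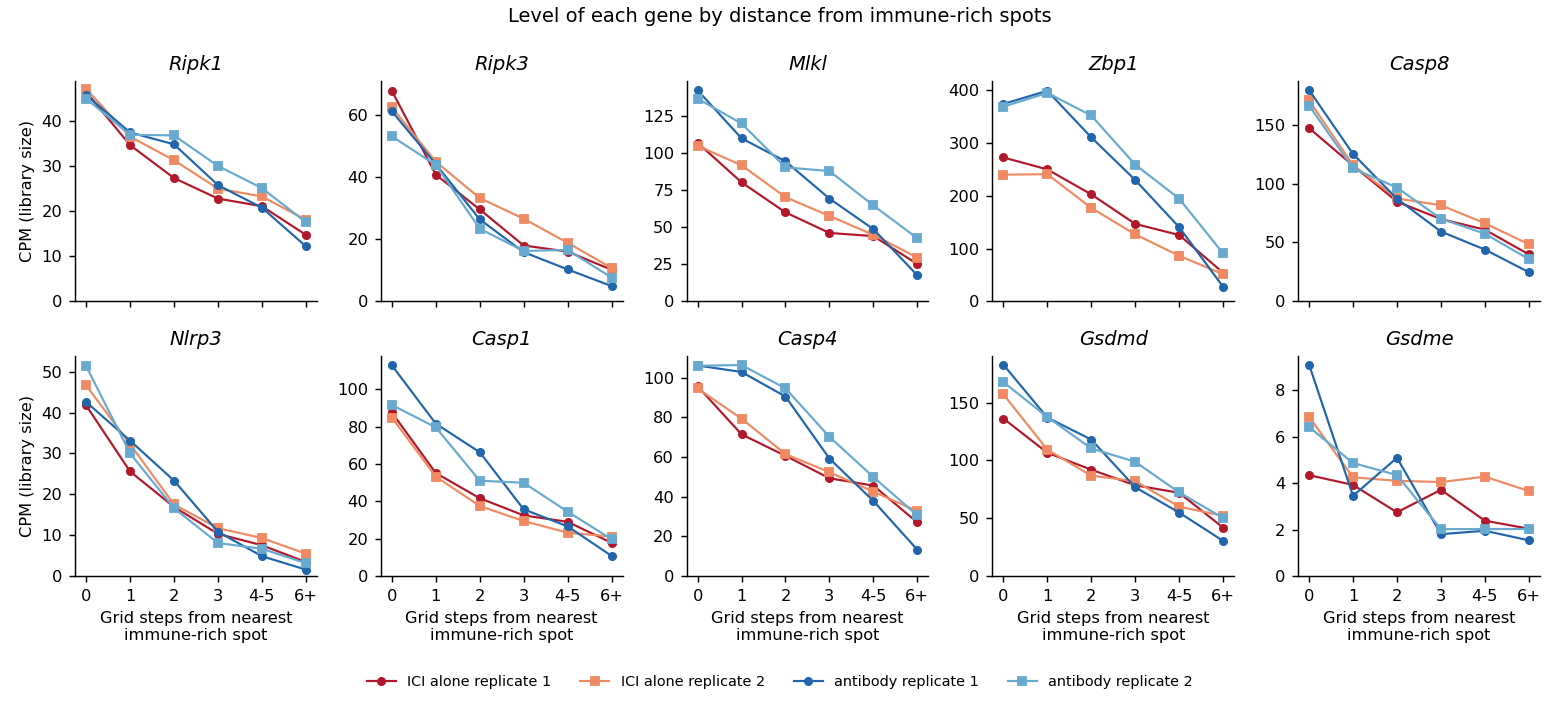
CPM (scaled by library size) of each gene against the number of grid steps from the nearest immune-rich spot, 1 line per section (red ICI alone, blue with the IL-17A antibody). Nlrp3 and Ripk3 fall steeply from the foci. Zbp1 stays near its immune-rich level 1 step out in every section, and Casp4 does in the antibody sections.

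Outside the immune-rich spots, 9 of the 10 genes were higher where the interferon gamma genes were high, beside 21.8% of the 13530 genes tested called higher (43.5% either way). Over all genes 2951 were higher and 2930 lower, or 3786 and 2192 with scaling by library size alone, which moved the median of all genes from 0.01 to 0.12. The median log2 fold change of the 10 was 1.08. Zbp1 rose most among the 10, at 296 over 106 and 308 over 122 CPM (ICI alone), and 337 over 61.5 and 328 over 135 CPM (antibody) (interferon-rich over interferon-poor spots in each section). Its log2 fold change was 1.63 ± 0.20, with an edgeR adjusted p of 0.00142. Its interferon-rich levels, 317 ± 18.6 CPM (SD, n = 4 sections), were alike in the 4 sections, while its interferon-poor levels ranged from 61.5 to 135 CPM. Nlrp3 followed at 1.53 ± 0.17, from 22.8 ± 8.31 against 8.20 ± 4.17 CPM (SD, n = 4 sections). Casp4, Mlkl, Ripk3 and Casp1 were each about doubled, at 1.13 ± 0.19, 1.11 ± 0.16, 1.09 ± 0.18 and 1.07 ± 0.14 on the log2 scale. Gsdmd (0.80 ± 0.14), Casp8 (0.73 ± 0.13) and Ripk1 (0.69 ± 0.10) rose less, with edgeR adjusted p of 0.00351, 0.00425 and 0.00248. Ripk1 is the gene with both interferon motifs in the window printed above, and had the smallest difference of the 9.

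Gsdme did not pass (0.39 ± 0.31, edgeR adjusted p = 0.343): it was higher in 3 of 4 sections, and in antibody replicate 2 it stood at 2.13 CPM in interferon-rich against 2.60 CPM in interferon-poor spots. Without antibody replicate 1 its difference was −0.022. Interferon-rich spots were not free of leukocyte transcripts, since the 20 panel genes summed to 4013 and 3846 CPM (ICI alone) and 3019 and 2655 CPM (antibody) there against 1993 and 2522 CPM (ICI alone) and 891 and 1472 CPM (antibody) in interferon-poor spots. Their part in these differences was not tested. When only spots 3 or more steps from any immune-rich spot were compared, an alternative chosen after the data had been seen, 9 of the 10 genes were again called higher. Of all 12940 genes tested there, 2133 were called higher and 2132 lower. The log2 fold change of Zbp1 was then 1.91, from 46 and 7 interferon-rich spots in the ICI-alone sections and 153 and 292 in the antibody sections.

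The treatments were then compared within each class of spots. Within immune-rich spots none of the 10 genes passed edgeR's test, beside 3.83% of the 13714 genes tested (260 higher and 265 lower, or 654 and 139 with scaling by library size alone). Ripk3 alone, 1 of the 10, had an unadjusted p under 0.05, a smaller share than the 28.5% of all genes, and DESeq2 called none of the 10 and 4.57% of 12650 genes. Ripk3 stood there at 73.1 and 66.2 CPM (ICI alone) against 57.8 and 49.4 CPM (antibody) (−0.36 ± 0.14 log2, adjusted p = 0.164), lower in both antibody sections. Zbp1 stood at 295 and 255 CPM (ICI alone) against 354 and 343 CPM (antibody) (0.35 ± 0.15, adjusted p = 0.180), higher in both. For Nlrp3 the groups overlapped, at 45.2 and 49.6 CPM (ICI alone) against 40.4 and 47.9 CPM (antibody) (−0.13 ± 0.15, adjusted p = 0.622). Casp8 overlapped too, at −0.06 ± 0.14 with an adjusted p of 0.804. Log2 differences of the 10 genes ran from −0.36 to 0.35 within immune-rich spots, 5 above and 5 below 0. With the batch as a replicate block none of the 10 passed either, and calls over all genes went from 525 to 0. T cell markers summed to 236 and 183 CPM (ICI alone) and 405 and 444 CPM (antibody) in these spots. Macrophage markers summed to 3255 and 4363 CPM (ICI alone) and 2337 and 2681 CPM (antibody) and neutrophil markers to 836 and 1078 CPM (ICI alone) and 489 and 328 CPM (antibody). The part of this make-up in the values was not tested.

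Within the other spots all 10 differences were below 0, and Ripk3 passed the test, beside 6.25% of the 18165 genes tested called lower and 1.79% higher (8.04% either way). These were 1136 and 325 genes, or 507 and 315 with scaling by library size alone, under which Ripk3 did not pass (adjusted p = 0.0772). Ripk3 stood at 19.4 and 25.7 CPM (ICI alone) against 10.5 and 13.3 CPM (antibody), with no overlap, and −0.92 ± 0.20 on the log2 scale (edgeR adjusted p = 0.0416). Casp8 stood at 65.9 and 77.2 CPM (ICI alone) against 40.8 and 50.5 CPM (antibody) (−0.65 ± 0.17, adjusted p = 0.0556). Nlrp3 stood at 9.92 and 14.9 CPM (ICI alone) against 6.26 and 7.0 CPM (antibody) (−0.91 ± 0.24, adjusted p = 0.0572), so that both were just short of the threshold of 0.05. With the batch as a replicate block these 3 genes all passed, at adjusted p of 0.00562 for Ripk3, 0.00907 for Casp8 and 0.0158 for Nlrp3, and calls over all genes rose from 1461 to 4400. Ripk3 did not pass without ICI-alone replicate 2 (0.0847), without antibody replicate 1 (0.140) or without antibody replicate 2 (0.0860). When ICI-alone replicate 1 was left out, more of the 10 genes passed, and calls over all genes rose as well. Neutrophil markers summed to 342 and 649 CPM (ICI alone) and 36.8 and 51.3 CPM (antibody) in these spots and macrophage markers to 2113 and 2549 CPM (ICI alone) and 1022 and 1691 CPM (antibody), lower in both antibody sections. Their part was not tested.

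Whether the difference between immune-rich and other spots depended on treatment was tested as an interaction, which none of the 10 genes passed, beside 0.391% of the 18433 genes tested (43 higher and 29 lower, or 19 and 1 with scaling by library size alone). DESeq2 called none of the 10 either, beside 1.01% of 12357 genes. The smallest p belonged to Gsdme (0.92 ± 0.36 log2, unadjusted p = 0.0281, edgeR adjusted p = 0.275) and Nlrp3 (0.62 ± 0.25, unadjusted p = 0.0315, edgeR adjusted p = 0.287), the 2 of the 10 with an unadjusted p under 0.05, beside 15% of all genes. For Nlrp3 the log2 ratio of immune-rich over other spots was 1.96 and 1.38 in the ICI-alone sections and 2.20 and 2.40 in the antibody ones, so the antibody sections had the higher ratios. For Gsdme the ratios were 0.53 and 0.52 in the ICI-alone sections and 1.63 and 1.02 in the antibody sections, from few counts. The difference of Gsdme was −0.017 when spots were ranked by macrophage markers. The larger treatment differences of Ripk3, Nlrp3 and Casp8 outside the immune-rich spots are therefore not shown to differ from those inside them.

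**Figure D5:**
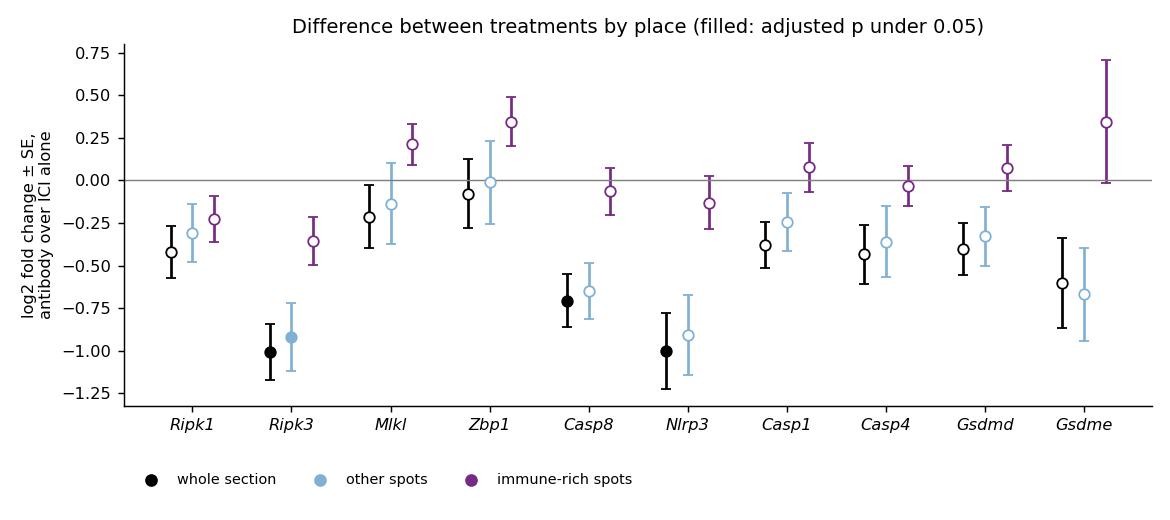
Log2 fold change with its SE, antibody over ICI alone, for each gene in whole sections (black), in other spots (blue) and in immune-rich spots (purple), with filled points where the adjusted p is under 0.05 (n = 2 sections per group). Ripk3, Nlrp3 and Casp8 are lowest in whole sections, Ripk3 and Nlrp3 are lowest in other spots with Gsdme (−0.67) and Casp8 next, and the values in immune-rich spots lie between −0.36 and 0.35.

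The rise toward the foci was seen in single spots too, after thinning each to 5000 UMIs so that depth is equal and leaving out 11 and 4 shallower spots in the ICI-alone sections and 105 and 37 in the antibody sections. Nlrp3 was detected in 18.6 and 20.2% (ICI alone) and 16.4 and 26% (antibody) of immune-rich spots and in 2.30 and 2.48% (ICI alone) and 1.01 and 1.48% (antibody) of spots 6 or more steps away. Before thinning these shares were 67.5 and 64.0% (ICI alone) and 54.0 and 45.2% (antibody), and 7.97 and 8.41% (ICI alone) and 2.91 and 3.71% (antibody). The immune-rich share of Nlrp3 was several times the far share in each section either way. Zbp1 was detected in 73.8 and 69.5% (ICI alone) and 82.6 and 71.2% (antibody) of immune-rich spots, in 73.8 and 85.9% (ICI alone) and 71.5 and 74.1% (antibody) of interferon-rich spots outside them. It was detected in 19.3 and 18.8% (ICI alone) and 11.1 and 30.9% (antibody) of spots 6 or more steps away. Genes of other tissues were detected in a median of 0.161 to 0.240% of thinned spots per section. In immune-rich spots alone that median was 0.422 and 0.182% (ICI alone) and 0.469 and 0% (antibody). Mbp, a myelin gene and the highest of them, was detected there in 21.1 and 16.4% (ICI alone) and 17.4 and 9.59% (antibody), and the next highest in 2.11 and 1.09% (ICI alone) and 1.88 and 5.48% (antibody). Gsdme was detected in 2.53 and 3.45% (ICI alone) and 5.16 and 4.11% (antibody) of immune-rich spots. It was thus below Mbp in every section and below the next highest in antibody replicate 2, so its shares are not clear of background. The mean number of the 10 genes detected in an immune-rich spot was 3.70 and 3.66 (ICI alone) and 3.94 and 3.68 (antibody), against 0.998 and 1.12 (ICI alone) and 0.688 and 1.21 (antibody) in a spot 6 or more steps away. Inside immune-rich spots these means were close between sections, but every such spot had reached the same leukocyte threshold. How far that selection sets the likeness was not tested.

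Partners of a route were found together in some thinned spots. Ripk3 and Mlkl were both detected in 15.6 and 10.2% (ICI alone) and 13.1 and 8.22% (antibody) of immune-rich spots and in 0.822 and 0.552% (ICI alone) and 0.178 and 0.606% (antibody) of spots 6 or more steps away. Zbp1 and Ripk3 were both detected in 23.6 and 18.9% (ICI alone) and 20.2 and 12.3% (antibody) and in 1.15 and 1.52% (ICI alone) and 0.297 and 2.02% (antibody) of the same spots. Casp1 and Gsdmd were both detected in 16.0 and 17.8% (ICI alone) and 20.7 and 12.3% (antibody) and in 2.14 and 3.03% (ICI alone) and 0.95 and 2.02% (antibody). A spot can hold several cells, so joint detection does not place both transcripts in 1 cell. Each of these genes was also higher on its own in immune-rich spots. Whether partners were found together more often than their separate shares give was not tested. By share of UMIs, immune-rich spots held 38.0 and 47.0% (ICI alone) and 41.5 and 21.2% (antibody) of all Nlrp3 UMIs, against 11.9 and 22.5% (ICI alone) and 9.22 and 3.79% (antibody) of the UMIs of all genes. For Zbp1 the shares were 23.8 and 34.2% (ICI alone) and 28.8 and 7.78% (antibody), and interferon-rich spots outside them held a further 17.1 and 8.27% (ICI alone) and 36.3 and 36.6% (antibody). In antibody replicate 2, with the fewest immune-rich spots, 36.6% of Zbp1 UMIs lay in interferon-rich spots and 7.78% in immune-rich ones.

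The authors' deposited table gives Moran's I for each gene and section, a score of how alike neighbouring spots are (0 for no spatial pattern). In that table Zbp1 had values of 0.643 and 0.572 (ICI alone) and 0.717 and 0.459 (antibody), which place it within the top 1.74% of listed genes in every section. The authors' deposited table gives Gsdme 0.0207 and 0.0129 (ICI alone) and 0.0435 and 0.00946 (antibody), beside medians over all listed genes of 0.0180 and 0.0155 (ICI alone) and 0.0179 and 0.00869 (antibody). The other 8 genes lay between, from 0.0415 (Ripk1 in antibody replicate 2) to 0.436 (Casp4 in antibody replicate 1) in the authors' deposited table. In the authors' deposited table Nlrp3 had 0.337 and 0.283 (ICI alone) and 0.323 and 0.213 (antibody), from fewer UMIs than Ripk1, which had 0.162 and 0.110 (ICI alone) and 0.114 and 0.0415 (antibody).

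Related genes were described from 7 lists, by how many of their tested members passed in whole sections, where 8.81% of all genes were lower and 3.03% higher with the antibody. Of all genes, 18.9% were lower and 16.3% higher at an unadjusted p under 0.05, and DESeq2 called 18.3% of 13709 genes lower and 5.86% higher (24.2% either way). Of 14 inflammasome sensors and adaptors, 4 were lower and none higher by edgeR (median −0.37, against 0.09 over all genes); 6 lower and 1 higher had an unadjusted p under 0.05, and DESeq2 called 5 lower and none higher. Pycard, the adaptor that links NLRP3 to caspase-1, stood at 101 and 136 CPM (ICI alone) against 65.4 and 56.9 CPM (antibody) (−0.95 ± 0.19 log2, edgeR adjusted p = 0.0293). The groups did not overlap for Pycard. Naip2, a sensor of bacterial secretion systems, was lower by the same test (−0.91 ± 0.21, adjusted p = 0.0401). So were Nlrp12 at under 2 CPM (−1.66 ± 0.28, adjusted p = 0.0227) and P2rx7, the ATP-gated channel that triggers NLRP3 (−0.72 ± 0.17, adjusted p = 0.0421), which was chosen after its values were seen. Of 9 genes for released products and their control, 2 were lower and none higher by edgeR (median −0.80), with 6 lower and none higher both at an unadjusted p under 0.05 and by DESeq2. They were Il33, an alarmin of stromal cells (−1.30 ± 0.23, adjusted p = 0.0249), beside the lower fibroblast marker sums given above, whose part was not tested, and Il18, a caspase-1 substrate, at 11.4 and 14.6 CPM (ICI alone) against 5.83 and 7.08 CPM (antibody) (−1.01 ± 0.20, adjusted p = 0.0304). Ninj1, which ruptures the membrane of dying cells, fell just short at 309 and 361 CPM (ICI alone) against 201 and 205 CPM (antibody) (−0.72 ± 0.19, adjusted p = 0.0529). None of 5 other gasdermin genes passed edgeR's test (median 0.58), 1 of them (Gsdma2) had an unadjusted p under 0.05, and DESeq2 called none. All 3 named by the rule (Gsdma2, Pjvk and Gsdmc2) lay under 1 CPM in every section.

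Upstream of RIPK1, 1 of 13 death receptor and ligand genes was lower and 1 higher in whole sections by edgeR (median −0.32). This list also holds the Toll-like receptor genes Tlr3 and Tlr4. At an unadjusted p under 0.05, 6 were lower and 2 higher, and DESeq2 called 4 lower and 1 higher. The shares of all genes for these counts are those given above. Tlr4, the lipopolysaccharide receptor, was the lower one by edgeR (−0.57 ± 0.14, adjusted p = 0.0470). Tnfsf10, which encodes the death ligand TRAIL, was higher at 23.0 and 15.4 CPM (ICI alone) against 31.1 and 46.8 CPM (antibody) (1.02 ± 0.25, adjusted p = 0.0458). Of 21 genes of the RIPK1 complex (median −0.18), 2 were lower, the deubiquitinase gene Otulin (−0.68 ± 0.14, adjusted p = 0.0336) and the adaptor gene Tradd (−0.59 ± 0.15, adjusted p = 0.0443). At an unadjusted p under 0.05, 4 were lower and none higher, and DESeq2 called 2 lower and none higher. Of 21 apoptosis genes (median −0.34), 3 were lower by edgeR: Bak1 (−0.72 ± 0.16) and Bax (−0.79 ± 0.20), the mitochondrial pore formers, and Casp6 (−0.56 ± 0.14). At an unadjusted p under 0.05, 8 were lower and 1 higher, and DESeq2 called 5 lower and none higher. None of 9 other necroptosis genes (median −0.12) passed edgeR's test. Itpk1, an inositol phosphate kinase gene needed for MLKL activation, was the 1 with an unadjusted p under 0.05 (−0.45 ± 0.13, adjusted p = 0.0693), and DESeq2 called 1 gene, Flot1. These calls, too, rested on both antibody sections: of the 13 listed genes named as passing, Il33 and Tnfsf10 alone passed without antibody replicate 1 and none passed without antibody replicate 2. Without ICI-alone replicate 2, Naip2, Tradd, Bax, Casp6 and P2rx7 did not pass. With scaling by library size alone these 5 and Tlr4 and Bak1 did not. Without atrial-rich spots by the list that includes Nppa, Tnfsf10, Tlr4, Otulin, Tradd, Bak1, Bax, Casp6 and P2rx7 did not, and after thinning to an equal total Tlr4, Tradd, Bax and Casp6 did not. With genes under 10 CPM left out, Pycard, Naip2, Il18, Tlr4, Otulin, Tradd, Bak1, Bax, Casp6 and P2rx7 did not pass, and with limma on mean log values per spot no gene of all tested did.

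In immune-rich spots, where 27.7% of all genes were higher and 26.5% lower, 8 of 12 sensors and adaptors tested were higher and 2 lower (median 1.17, against 0.12 over all genes). Naip2 (1.87 ± 0.12 log2), Naip5 (1.64 ± 0.16) and Pycard (1.45 ± 0.13) had the smallest p. Released products were led by Il1a, at 166 against 14.5 CPM on average (3.55 ± 0.25), the interleukin-1 receptor antagonist Il1rn (3.19 ± 0.25) and Il1b, at 655 against 125 CPM (2.57 ± 0.30), and 6 of 9 were higher with none lower (median 0.76). Both other gasdermin genes tested, Gsdmc and Gsdmc4, were called higher (1.30 and 1.34), and neither passed without ICI-alone replicate 1. Among death receptors and ligands 8 of 13 were higher and 3 lower (median 0.79), with Lta (2.30 ± 0.20), Tnf (1.72 ± 0.16) and Tnfrsf1b (1.95 ± 0.19), the lymphotoxin, TNF and TNF receptor genes, having the smallest p. Tnfsf10, higher with the antibody in whole sections, was among the 3 lower ones here.

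Of 21 RIPK1 complex genes 8 were higher and 1 lower in immune-rich spots (median 0.15), beside 27.7% of all genes higher, with Tnfaip3 (1.41 ± 0.15), the ubiquitin editor that limits NF-κB and RIPK1 signalling, and Birc3 (0.91 ± 0.12), a ubiquitin ligase of RIPK1, among them. Other necroptosis genes were mixed, with 3 of 9 higher and 5 lower (median −0.41); Camk2d, the cardiomyocyte kinase that RIPK3 can activate, was lower (−1.03 ± 0.14), as was Stub1 (−0.68 ± 0.11), and Itpk1 was higher (1.02 ± 0.13). Of 21 apoptosis genes 14 were higher and 4 lower (median 0.64), with Bcl2a1b (2.39 ± 0.17), a leukocyte survival gene, and Bcl2l11 (1.37 ± 0.11), which encodes BIM, higher and the mitochondrial Cycs lower (−1.65 ± 0.15). In interferon-rich spots outside them, where 21.8% of all genes were higher, 5 of 11 sensors and adaptors, 7 of 9 released products, 10 of 13 death receptors and ligands, 9 of 21 RIPK1 complex genes, 3 of 9 other necroptosis genes and 12 of 21 apoptosis genes were higher, with medians of 0.52, 0.85, 0.58, 0.21, 0.04 and 0.37. Within immune-rich spots the antibody sections had higher Lta (1.33 ± 0.16 log2, edgeR adjusted p = 0.0394), Tnf (0.72 ± 0.12, adjusted p = 0.0437) and Il1a (0.69 ± 0.13, adjusted p = 0.0463), beside 1.9% of all genes called higher there. Their signs were the same under all 13 alternatives, but Lta passed under 7 of these, Tnf under 3 and Il1a under 2, and none of the 3 passed when either antibody section was left out or with the batch as a replicate block (adjusted p = 0.0981 for each). The T cell marker sums given above were higher in the same spots of both antibody sections. Also called there were Bcl2, higher, and Il18bp, lower, beside 1.93% of all genes called lower. No other gene of the 7 lists passed. Tested there were 11 sensors and adaptors, 9 released products, 1 other gasdermin gene and 13 death receptors and ligands. So were 21 RIPK1 complex genes, 9 other necroptosis genes and 21 apoptosis genes.

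Finally, the genes whose levels ran most alike were named for each of the 10, by Pearson correlation of log2 CPM over 24 sums (6 distances in 4 sections, which share sections and distance), as a description with no p. Nearest to Zbp1 were Serpina3g (r = 0.99) and Calhm6 (0.99). Nearest to Nlrp3 were Kif21b (0.99) and Arpc5 (0.99), and nearest to Casp8 were Pilra (0.99) and Cd300lf (0.99), both genes of myeloid surface receptors. Casp1 ran most like Irf5 (0.99) and Hk3 (0.99), and Gsdmd like Cxcl16 (0.99) and Irf5 (0.99), so Irf5, a transcription factor gene of myeloid cells, stood by both. Mlkl ran most like Tnf (0.98) and Stx11 (0.98), Casp4 like Zfp36 (0.99) and Birc3 (0.99), Ripk3 like Clic1 (0.99) and Sh3bgrl3 (0.99), and Ripk1 like Rab5c (0.98) and Ass1 (0.98). Gsdme had the lowest values, with Eml3 (0.91) and Exosc5 (0.91). Within the set, Ripk3 ran at r = 0.98 with both Casp8 and Nlrp3 and at 0.80 with Zbp1. With each section's mean removed, these values were 0.99 with both and 0.92 with Zbp1.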

How the data were processed

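The authors deposited UMI counts per gene and spot, made with Space Ranger 2.1.0 per the file headers; the submitters' processing notes name the build mm10 and Seurat 5.1.0. Which probe set was used is not known here. The authors also deposited grid positions and a table with Moran's I, a score per gene, and its adjusted p-value per the file headers; for every gene it lists, its count total equals the sum of the matrix. Genes were matched by symbol; 11 symbols occur more than once, none of them among the 10.

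Counts were summed per section, or per section and spot class, and tested with edgeR 4.0.16 (filterByExpr, TMM, quasi-likelihood F test, Benjamini-Hochberg adjustment over all genes tested, threshold 0.05) in R 4.3.3. The section was a block where classes of spots were compared. The genes that define a class were left out of its test. Thinning used a fixed random seed, and 3 counts in a section correspond to 0.0410 to 0.0909 CPM. DESeq2 1.42.0 and limma 3.58.1 served as alternatives, among those listed at the end of the text. Ring and marker levels are CPM by library size; test levels are CPM after TMM within each comparison. The common biological coefficient of variation over whole sections was 17.0%. On simulated counts, 76% of 2-fold and 96% of 4-fold changes were recovered for whole sections (18817 genes), and 94% and 98% for immune-rich against other spots (16080 genes). The simulated spread was set below the 17.0% found here. Changes were given to few genes, none with low counts, and rises and falls were equal in number. Recovery in these data may therefore be lower. Deviations of sections with the same batch number from their group means correlated at r = 0.182 over 18817 genes. The labels name the number a batch, so it was used as a pairing in the alternative with a replicate block. The whole-section and within-class tests of treatment reported as main results were not paired.

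The 10 genes, the gene lists and the comparisons were chosen with earlier results of these data known. Named besides the 10 were the 3 genes with the smallest p of each pathway list in the whole-section and immune-rich tests and, for each of the 10, the 2 genes most alike over distance. Of the lists, Naip6, Nlrc4, Nlrp1b, Ppm1b, Diablo, Tgtp2, Actc1 and Amy2a1 were not analysed here. Zbp1 and Gsdmd have no promoter window used here.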

Additional observations from a re-analysis of the deposited data

Results flagged for a closer look

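Among the 10 genes and the related lists, 1 gene, Il33, had a difference between immune-rich and other spots that depended on treatment. Tested besides the 10 were 14 sensors and adaptors, 9 released products, 4 other gasdermin genes and 13 death receptors and ligands. So were 21 RIPK1 complex genes, 9 other necroptosis genes and 21 apoptosis genes. Of all 18433 genes tested, 0.391% passed. Il33 is named because it passed, and whether 1 call among the listed genes exceeds that share was not tested. Il33 encodes an alarmin released by damaged stromal cells. With ICIs alone its level was lower in immune-rich than in other spots, at 53.0 against 88.8 CPM and 102 against 132 CPM. With the antibody it was higher in immune-rich spots, at 131 against 36.3 CPM and 71.8 against 32.6 CPM. The interaction was 2.09 ± 0.27 on the log2 scale (SE; edgeR adjusted p = 0.0163 over 18433 genes), and the 2 sections of each group ran the same way. Fibroblast markers (8 genes) summed to 7123 against 7681 CPM and 18245 against 16277 CPM in the same spots with ICIs alone, and to 3642 against 1984 CPM and 2868 against 2408 CPM with the antibody. Their part was not tested. It did not pass without ICI-alone replicate 1 (adjusted p = 0.180), without ICI-alone replicate 2 (0.202), with 20% of spots called immune-rich (0.0739) or with spots ranked by T cell markers (0.0775), and it passed under the other 8 of 12 alternatives.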

How the results depend on the processing

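Of the 10 genes, the count past the threshold in whole sections (3) was 0 without antibody replicate 1 or 2, 7 without ICI-alone replicate 1, 1 with genes under 10 CPM left out and 0 with limma on mean log values per spot, and 3 or 2 under the other 8 of 13 alternatives. Within other spots the count (1) was 0 with scaling by library size alone or with 20% of spots called immune-rich, 3 with DESeq2, without a filter, with the batch as a replicate block, with 5% of spots, with thinning to 2000 UMIs and with ranking by macrophage or by T cell markers, and between 0 and 4 when 1 section was left out. The count for immune-rich spots (10) was 9 with ranking by macrophage markers, where Gsdme did not pass, and 10 under the other 11 of 12 alternatives. The counts for interferon-rich spots (9 under 11), the interaction (0 under 12) and treatment within immune-rich spots (0 under 13) did not move. Signs turned for Zbp1 in whole sections (0.020 with library size scaling, 0.10 with genes under 10 CPM left out, and from −0.35 to 0.15 when 1 section was left out), for Gsdme in the interaction with ranking by macrophage markers (−0.017) and for Gsdme in interferon-rich spots (from −0.022 to 0.59 when 1 section was left out); the cause was not tested. Counts over all genes ranged over the alternatives from 0 to 4479 in whole sections (2229 as reported), with 1869 by library size scaling, 3315 by DESeq2, 329 and 515 without antibody replicates 1 and 2, 4479 without ICI-alone replicate 1 and 3839 with the replicate block. They ranged from 4544 to 9629 in immune-rich spots (8715), from 3231 to 6806 in interferon-rich spots (5881), from 0 to 2262 for the interaction (72), from 0 to 1160 for treatment within immune-rich spots (525) and from 0 to 4400 within other spots (1461). Leaving out atrial-rich spots by Sln, Myl4, Myl7 and Bmp10 and comparing interferon-rich spots only at 3 or more steps from immune-rich ones were chosen after seeing the data. Gsdme is limited by depth and rests on 85 UMIs in the shallowest section.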
